A study of Homo sapiens with 12 samples.

Results

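The comparison was between a telomeric RNA repeat that folds into a G-quadruplex (G4) and the same repeat with its guanines replaced by cytosines, taken up by 3 human cancer cell lines. It used 6 of the 12 arrays of the study: the 3 arrays of cells given the RNA oligonucleotide (uuaggg)4 and the 3 of cells given the control RNA oligonucleotide (uuaccc)4, each set holding 1 array of PC-3, a prostate line, 1 of HBC4, a breast line, and 1 of MKN74, a gastric line. Of the other 6 arrays, 3 held cells given AS1411, a G4-forming DNA oligonucleotide known to bind nucleolin, and 3 held cells given the transfection reagent alone. All 12 samples had in common that 300000 cells were reverse transfected with Lipofectamine RNAiMAX, with about 100 pmol of oligonucleotide per well (1.0 µg) except where the reagent was given alone, cultured for 72 h on plates to which cells adhere poorly. Every gene was compared within each line, and 19775 genes were tested on each of the 12 arrays. The labels name no separate cultures, so each treatment of a line is a single sample and the 3 lines are the replicates.

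G4 structures are stacks of guanine tetrads that form in guanine-rich DNA and RNA, among them telomeric DNA and TERRA, the RNA transcribed from telomeres. Cells recognise foreign or misplaced RNA through sensors such as RIG-I, MDA5 and TLR3, which switch on type I and type III interferons. Secreted interferon then acts through its receptors and STAT and IRF factors on interferon-stimulated genes, whose products block viral entry, translation and replication and raise antigen presentation. Many cancer lines run part of this programme without infection.

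The deposited values are log2 intensities that were centred, so that each probe set (the group of array probes that reads 1 transcript) has a median of 0 over the 12 arrays. A value therefore says how far an array lies above or below that probe set's median, and neither levels nor detection can be read from it. Arrays of the same line correlated at 0.892 to 0.980 across genes. Against the other lines, 4 of 10 prostate markers were higher in PC-3 by more than 1 on the log2 scale (HOXB13, STEAP1, STEAP2, TMPRSS2), and 2 of 11 breast markers were so in HBC4 (ESR1, SCGB2A2). Other breast markers went the other way, with KRT5 (-4.82) and MUCL1 (-1.92) in HBC4 furthest below the higher of the other lines. None of 12 gastric markers, a count of 0, was higher by more than 1 in MKN74: TFF1, TFF2, MUC5AC and ANXA10 were instead highest in PC-3, so these centred values do not set MKN74 apart as gastric. Members of the marker lists of immune cells (9), fibroblasts (9) and endothelium (7) gave medians of 0.01, -0.02 and -0.10 for (uuaggg)4 minus (uuaccc)4, with 0 genes past the adjusted p of 0.05 used throughout.

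Many genes of the interferon response fell with (uuaggg)4, each of them in all 3 lines. With 1 probe set standing for each gene, 2 genes of any kind rose, and 5 probe sets rose when every probe set was tested. In RNA of whole cultures a lower value in every cell and a lower share of cells that express a gene cannot be told apart. IFI44, an interferon-induced protein that restricts virus replication, had centred log2 values of -0.13, 0.05 and -2.34 in the PC-3, HBC4 and MKN74 cells given (uuaggg)4, against 2.79, 3.27 and 0.45 in those given (uuaccc)4. The 3 (uuaggg)4 arrays lay below all 3 (uuaccc)4 arrays, with no overlap. Within lines the differences were -2.92 (PC-3), -3.22 (HBC4) and -2.79 (MKN74), a mean of -2.97 ± 0.22 (SD, n = 3 lines), or 7.86-fold lower (limma, adjusted p = 1.6e-05). XAF1, an apoptosis factor that binds XIAP, fell too. In the probe set that stood for it, its values were -2.56, -0.44 and -1.55 with (uuaggg)4, against 0.50, 3.42 and 0.48 with (uuaccc)4. The groups did not overlap, and the difference was widest in HBC4 and narrowest in MKN74 (-2.98 ± 0.92, 7.9-fold lower, adjusted p = 0.0301). Its other probe sets gave smaller differences of -1.71 and -1.34, and with its probe sets averaged XAF1 gave -2.01 and did not pass (limma, adjusted p = 0.115), whereas IFI44 gave -2.95 (adjusted p = 0.000298).

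In all, limma with the cell line as a block placed 48 of 19775 genes past a Benjamini-Hochberg adjusted p of 0.05. Of these, 46 were lower with (uuaggg)4, 0.233% of all genes tested, and 2 were higher, 0.0101%. Each of the 48 had the same sign in all 3 lines, which follows in part from their selection. Over all genes, 15.5% were lower and 18.0% were higher in all 3 lines. Of the 46 that fell, 32 fell by at least 2-fold and 11 by at least 4-fold, whereas neither of the 2 that rose reached 2-fold. At an unadjusted p under 0.05 the directions were nearly even, with 1059 genes lower and 1007 higher. Of the 46 genes that fell, 29 stand in 8 lists of interferon and antigen presentation genes that hold 156 measured genes between them. These lists were chosen with earlier results of these data known, so membership in them is not separate support. The number of calls rests on few arrays: without PC-3 it was 2 and without HBC4 9, and without 1 of the 6 arrays compared it lay between 7 and 28. Without the HBC4 array given the reagent alone it was 25 and without the HBC4 array of AS1411 it was 32, of which 30 lower. Without the line as a block 0 genes passed. The 6 genes COXFA4L3, DDX60, IFI44, IFIT3, OAS1 and UBE2L6 passed whichever 1 of the 12 arrays was left out.

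**Figure D1:**
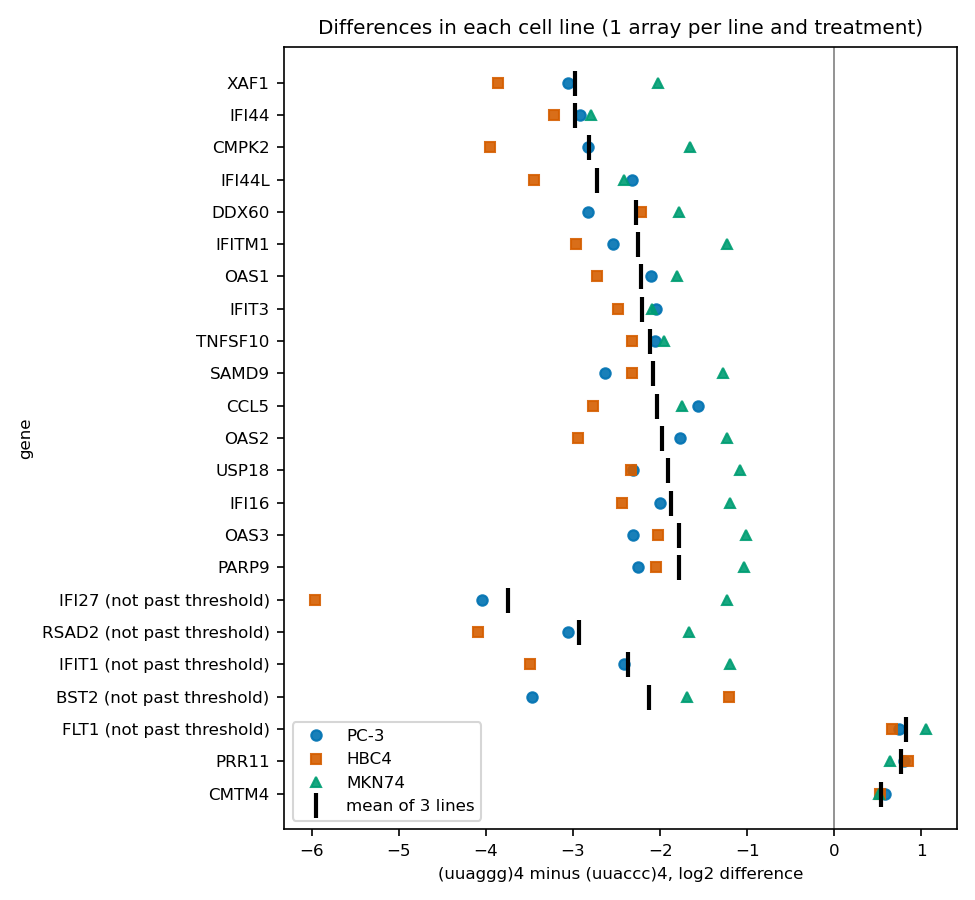
Log2 difference of (uuaggg)4 minus (uuaccc)4 in each cell line (horizontal axis) for the 16 genes with the lowest mean past the threshold, the 4 largest falls by size that did not pass, and the leading rises (vertical axis, 1 gene per row); symbols are lines, 1 array per line and treatment, and the bar is the mean of 3 lines. IFI44 and IFIT3 lie close together in the 3 lines, whereas IFI27 runs from -5.97 in HBC4 to -1.23 in MKN74.

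A second count, from the same 6 arrays, did not use the test. In 29 genes, 0.147% of those tested, the (uuaggg)4 array lay at least 2-fold below the (uuaccc)4 array in each of the 3 lines, and in 0 genes did it lie at least 2-fold above. Of the 29, 26 are in the interferon-linked lists, and the others were BTN3A2, DDX60L and HCP5. The test passed 21 of them. The remaining 8 were IFI27, RSAD2, IFIT1, BST2, ISG15, IFIH1, RIGI and TLR3. IFI27, a mitochondrial interferon-induced protein, gave the lowest mean of all genes tested and did not pass: the differences were -4.05 (PC-3), -5.97 (HBC4) and -1.23 (MKN74) (mean -3.75 ± 2.38, 95% interval -5.51 to -1.99, adjusted p = 0.135).

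Among the sensors of RNA and DNA, 5 of 18 measured members fell and 0 rose, with a median of -1.17 against 0.01 over all genes, and 13 of 18 were lower in all 3 lines, as were 15.5% of all genes. The 5 were OAS1, OAS2 and OAS3, which sense double-stranded RNA and activate RNase L, DDX60, a helicase that supports RIG-I, and IFI16, a sensor of DNA. OAS1 had values of -0.23, -2.47 and -1.44 with (uuaggg)4, against 1.88, 0.26 and 0.36 with (uuaccc)4, without overlap. It fell 4.64-fold on average (-2.21 ± 0.47, adjusted p = 0.00358), and DDX60 fell 4.84-fold (-2.27 ± 0.52, adjusted p = 0.00317). The signalling helicases themselves did not pass in the probe sets that stood for them. IFIH1, which encodes MDA5, gave -2.57 (PC-3), -2.05 (HBC4) and -1.07 (MKN74) (adjusted p = 0.0566), and RIGI gave a mean of -1.71 ± 0.67 (adjusted p = 0.0557). Another RIGI probe set, at -1.86, passed when every probe set was tested (limma, adjusted p = 0.0412). TLR3, the endosomal receptor of double-stranded RNA, gave even differences of -1.47 (PC-3), -1.38 (HBC4) and -1.71 (MKN74) but an adjusted p of 0.11. Its AS1411 minus reagent differences, which enter the same spread, were -2.13 (PC-3), -1.47 (HBC4) and -0.04 (MKN74). Another TLR3 probe set, at -1.21, passed when every probe set was tested (limma, adjusted p = 0.0242). Of the 9 adaptors and kinases downstream of these sensors, 0 passed and the median was 0.01.

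The antiviral effectors formed the largest group: 19 of 52 measured members fell, 0 rose, and the median was -1.17. In this list 45 members were lower in all 3 lines and 0 were higher in all 3. The IFIT family binds viral RNA and blocks its translation. IFIT3 had values of -0.04, -0.29 and -1.81 with (uuaggg)4, against 2.002, 2.19 and 0.28 with (uuaccc)4, a difference of -2.21 ± 0.24 (4.61-fold lower, adjusted p = 7.55e-05). The groups did not overlap and the 3 lines differed little. IFIT2 (-1.64) and IFIT5 (-1.17) fell as well, while IFIT1 had -2.42 (PC-3), -3.50 (HBC4) and -1.20 (MKN74) and did not pass (adjusted p = 0.123).

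The IFITM proteins, which block the fusion of enveloped viruses, fell too: IFITM1 by 4.75-fold (-2.25 ± 0.90, adjusted p = 0.0295), IFITM3 by 2.06-fold and IFITM2 by 2.03-fold. They are close paralogs, so their probe sets may read one another's transcripts. CMPK2, a mitochondrial nucleotide kinase, had values of -0.32, -4.13 and 0.55 with (uuaggg)4, against 2.51, -0.18 and 2.21 with (uuaccc)4. The groups overlapped between lines, yet each line gave a large difference: -2.83 (PC-3), -3.95 (HBC4) and -1.66 (MKN74) (-2.81 ± 1.15, adjusted p = 0.0261). Its genomic neighbour RSAD2, which encodes the antiviral enzyme viperin, gave -2.94 ± 1.22 and missed the threshold (adjusted p = 0.0557), although another of its probe sets passed when all probe sets were tested.

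The other effectors that fell were IFI44L (-2.73), SAMD9 (-2.08), a restrictor of poxviruses, the ADP-ribosyltransferase family members PARP9 (-1.78), PARP12 (-1.20) and PARP14 (-1.17), the nuclear body proteins SP110 (-1.11) and SP100 (-0.88), the GTPase GBP3 (-0.81) and the capsid-binding factor TRIM5 (-0.72). TNFSF10, which encodes the death ligand TRAIL, fell evenly in the probe set that stood for it, with -2.06 (PC-3), -2.33 (HBC4) and -1.95 (MKN74) (-2.11 ± 0.19, adjusted p = 0.0126). Its other probe sets were less even, with -2.24 (PC-3), -2.64 (HBC4) and -1.46 (MKN74) in 1 and -1.86, -2.91 and -1.29 in the last. The dynamin-like GTPases MX1 and MX2 did not pass: MX1 gave -1.73 (PC-3), -3.13 (HBC4) and -0.07 (MKN74), and MX2 -2.05 (PC-3), -3.28 (HBC4) and -0.80 (MKN74). Some members that did not pass were far lower in PC-3 and HBC4 and higher in MKN74. GBP1 gave -2.40 (PC-3), -1.93 (HBC4) and 0.45 (MKN74), and RTP4 gave -2.44 (PC-3), -1.65 (HBC4) and 0.66 (MKN74).

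ISG15 is a ubiquitin-like protein that interferon-treated cells attach to many proteins. All 5 measured genes of its conjugation had lower values in every line, with a median of -1.88, and 2 passed. UBE2L6, the conjugating enzyme, had values of -0.28, 0.31 and -2.41 with (uuaggg)4, against 1.12, 1.68 and -0.77 with (uuaccc)4. The groups overlapped between lines, but the within-line differences were nearly equal, at -1.40 (PC-3), -1.38 (HBC4) and -1.63 (MKN74) (-1.47 ± 0.14, adjusted p = 0.000367). USP18, which removes ISG15 and dampens interferon receptor signalling, fell by 3.76-fold (-1.91 ± 0.72, adjusted p = 0.0455). ISG15 itself gave -1.77 (PC-3), -2.996 (HBC4) and -1.01 (MKN74) and did not pass (adjusted p = 0.111), nor did the ligases HERC5 (-1.86 ± 0.89, adjusted p = 0.0922) and HERC6 (-1.88 ± 1.14, adjusted p = 0.191).

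Of the 20 measured genes of MHC class I presentation, 1 fell and 0 rose when 1 probe set stood for each. The median was -0.45, and 15 members were lower in all 3 lines. The one that passed was TAP1, a subunit of the transporter that brings peptides into the endoplasmic reticulum, with -1.73 (PC-3), -0.94 (HBC4) and -1.26 (MKN74) (-1.31 ± 0.40, 2.48-fold lower, adjusted p = 0.0228). The immunoproteasome subunit PSMB9 gave -1.26 ± 0.81 (adjusted p = 0.191) and the transactivator NLRC5 -1.23 ± 0.67 (adjusted p = 0.144). HLA-B, a classical class I heavy chain, had its widest difference in MKN74 and did not pass (-0.58 (PC-3), -0.50 (HBC4) and -1.95 (MKN74), adjusted p = 0.26). When every probe set was tested, a probe set each of B2M (-0.94), HLA-E (-0.67) and HLA-F (-0.99) passed as well. HLA genes are near-identical in sequence, and their probe sets may not tell them apart.

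Among 25 measured chemokines, cytokines and NF-kB targets, 1 fell and 0 rose, with a median of -0.36. CCL5, a chemokine that draws T cells, had values of -2.14, 0.09 and -0.13 with (uuaggg)4, against -0.57, 2.87 and 1.62 with (uuaccc)4. The groups overlapped between lines and the difference was widest in HBC4 (-1.57 (PC-3), -2.77 (HBC4) and -1.75 (MKN74)). Its mean was -2.03 ± 0.65, or 4.09-fold lower (adjusted p = 0.00855). The other probe sets of CCL5 gave smaller differences of -1.29 and -1.37, and with its probe sets averaged CCL5 gave -1.56 and still passed (limma, adjusted p = 0.0366). CXCL10 and CXCL11, chemokines named for their induction by interferon, gave -1.13 ± 0.81 and -1.41 ± 0.97 and did not pass (adjusted p = 0.224 and 0.34). IL6 was lower in PC-3 and HBC4 and not in MKN74, at -1.63 (PC-3), -1.54 (HBC4) and 0.06 (MKN74) (adjusted p = 0.254).

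Of 13 measured interferons and interferon receptors, 0 passed, and the median was -0.07. The lowest value belonged to IFNL2, a type III interferon whose probes may also read its near-identical neighbour, with -0.82 (PC-3), -3.12 (HBC4) and -1.35 (MKN74) (adjusted p = 0.191). IFNB1, the type I interferon of non-immune cells, gave -0.37 (PC-3), -1.68 (HBC4) and -0.26 (MKN74) (adjusted p = 0.341). Among 14 signalling and transcription factors, 1 passed: BATF2, a leucine zipper partner of IRF1, fell by 2-fold (-1.003 ± 0.18, adjusted p = 0.0455). IRF7 (-0.90 ± 0.38, adjusted p = 0.0911) was lower in all 3 lines without passing, as was IRF9 (-0.81 ± 0.42, adjusted p = 0.23), which carries the interferon signal to the nucleus.

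**Figure D2:**
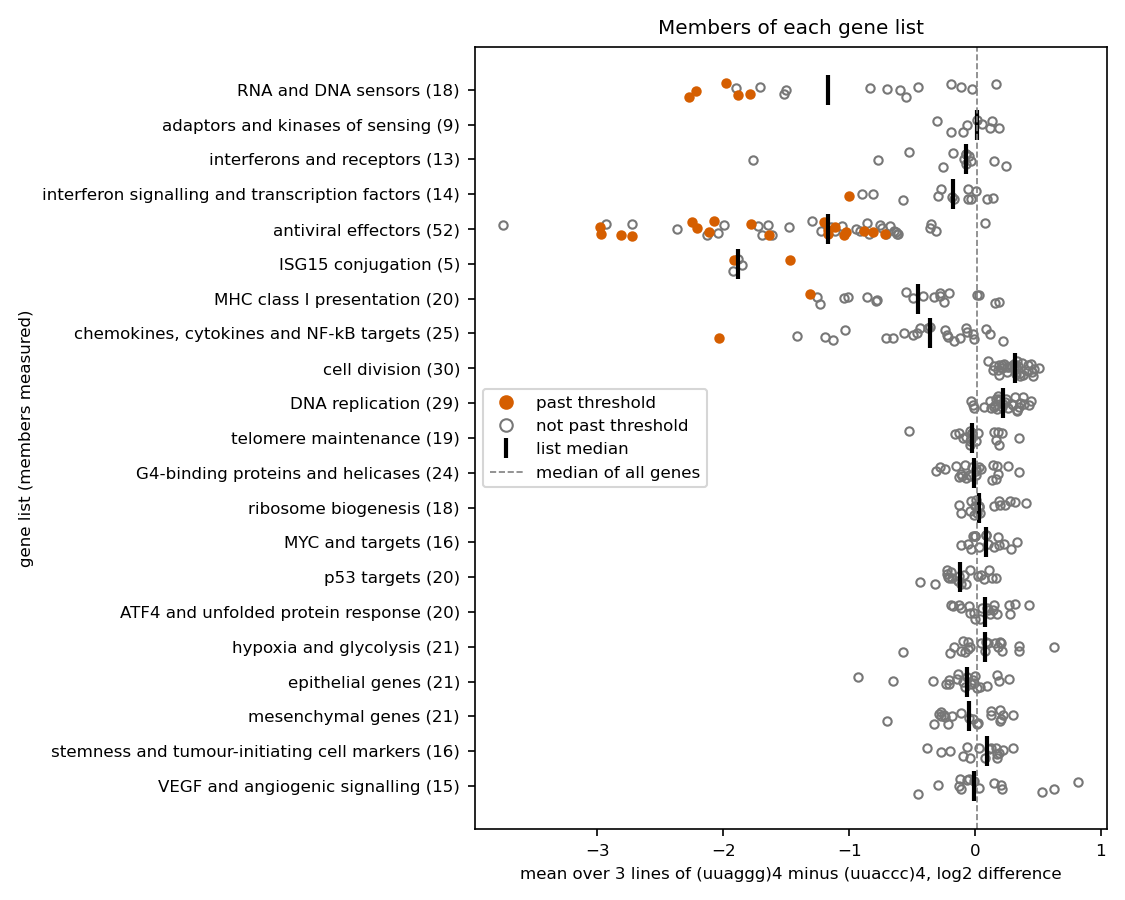
Mean over 3 lines of the log2 difference (uuaggg)4 minus (uuaccc)4 (horizontal axis) for each measured member of 21 gene lists (rows, with the number of members); filled points passed the threshold, the bar is the list median and the dashed line is the median of all genes. The members past the threshold lie in the sensors, interferon signalling, antiviral, ISG15, MHC class I and chemokine lists, all below 0, while cell division and DNA replication members lie mostly above 0 without passing.

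The other 17 genes that fell stand on none of the interferon-linked lists. Some are known as interferon-stimulated or antiviral genes: DDX60L, a paralog of DDX60, fell by 2.89-fold (-1.53 ± 0.42, adjusted p = 0.0236), SAMHD1, which depletes the nucleotides that retroviruses need, by 2.67-fold (-1.42 ± 0.67), and SHFL, an inhibitor of programmed ribosomal frameshifting, by 1.99-fold (-0.99 ± 0.19, adjusted p = 0.00569). ZNFX1, a helicase that senses viral RNA at mitochondria, gave -0.84, and the ubiquitin ligase TRIM38 -0.67. HCP5, a long noncoding RNA of the MHC class I region, fell by 2.84-fold (-1.51 ± 0.38). BTN3A2, a butyrophilin of the family that presents phosphoantigens to gamma delta T cells, had the most even difference of the genes that fell: -1.08 (PC-3), -1.21 (HBC4) and -1.13 (MKN74) (-1.14 ± 0.06, adjusted p = 0.00569). Its other probe set was less even, at -0.89 (PC-3), -1.13 (HBC4) and -0.69 (MKN74). That probe set passed too when every probe set was tested (limma, adjusted p = 0.0163). COXFA4L3, a paralog of a cytochrome c oxidase subunit, fell by 2.38-fold (-1.25 ± 0.24, adjusted p = 0.0025), and PPM1K, a mitochondrial phosphatase of branched-chain amino acid breakdown, by 2.5-fold (-1.32 ± 0.42, adjusted p = 0.00855).

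The rest have other known roles. CYP1A1, a cytochrome P450 that the aryl hydrocarbon receptor induces, had values of -2.41, -0.94 and -0.13 with (uuaggg)4, against -1.58, 0.13 and 0.86 with (uuaccc)4. The groups overlapped between lines, and within lines the differences were close, at -0.83 (PC-3), -1.07 (HBC4) and -0.98 (MKN74) (-0.96 ± 0.12, adjusted p = 0.0261). RASGRP3, an exchange factor of Ras, gave -0.98, CCR1, a chemokine receptor, -0.86, EHF, an epithelial ETS factor, -0.81, CLIP4 -0.66, the long noncoding RNA LINC00520 -0.57, the remodeller CHD6 -0.78 and the chromatin reader ZMYND8 -0.54. CHD6 and ZMYND8 also have probe sets of the opposite sign, up to 0.22 and 0.07.

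With 1 probe set per gene, PRR11 and CMTM4 rose past the threshold. PRR11, a proline-rich protein of cell cycle progression, had values of -0.12, 1.07 and 0.62 with (uuaggg)4, against -0.92, 0.22 and -0.01 with (uuaccc)4. The groups overlapped between lines, and each line was higher with (uuaggg)4: 0.81 (PC-3), 0.85 (HBC4) and 0.64 (MKN74) (0.76 ± 0.11, adjusted p = 0.0158). Of its 3 probe sets the lowest gave -0.16, so the rise is not shared by all, and their average was 0.22 (adjusted p = 0.512). CMTM4, a membrane protein known to stabilise PD-L1, gave 0.59 (PC-3), 0.52 (HBC4) and 0.51 (MKN74) (0.54 ± 0.04, adjusted p = 0.034), and 0.43 with its probe sets averaged (adjusted p = 0.108). When every probe set was tested, a probe set each of EIF4B, EPHA1 and FARP1 rose as well. The EIF4B probe set, for a translation initiation factor, gave 0.86 (PC-3), 0.78 (HBC4) and 0.60 (MKN74) (adjusted p = 0.0481). That of EPHA1, an ephrin receptor, gave 0.78 (PC-3), 0.47 (HBC4) and 0.48 (MKN74) (adjusted p = 0.0408). That of FARP1 gave 1.34 (PC-3), 0.73 (HBC4) and 0.48 (MKN74) (adjusted p = 0.0499). The probe sets that stood for these genes gave 0.37 for EIF4B, 0.19 for EPHA1 and 0.34 for FARP1 and did not pass. FLT1, the VEGF receptor VEGFR1, was 1 of 2 genes at least 1.5-fold higher in each line, the other being PRR11. FLT1 gave 0.74 (PC-3), 0.66 (HBC4) and 1.06 (MKN74) (0.82 ± 0.21) and did not pass (adjusted p = 0.0986). These values rest on 1 of its 6 probe sets. The others ran from -0.14 to 0.24, and with all of them averaged FLT1 gave 0.21 (limma, adjusted p = 0.465).

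Genes of proliferation had small values above 0. Of 30 measured cell division genes, 0 passed, yet 27 were higher in all 3 lines, as were 18.0% of all genes, and the list median was 0.32. The kinase NEK2 (0.51 ± 0.33, adjusted p = 0.165), the anaphase activator CDC20 (0.47 ± 0.21, adjusted p = 0.224) and the kinase AURKB (0.44 ± 0.04, adjusted p = 0.111) had some of the highest values. The other probe set of NEK2 gave a mean of 0.40. That of AURKB gave -0.12, with 0.39 (PC-3), -0.23 (HBC4) and -0.51 (MKN74), so the AURKB value rests on 1 probe set. Of 29 measured DNA replication genes, 0 passed and 22 were higher in all 3 lines, with a median of 0.22. The origin recognition subunit ORC1 gave 0.44 ± 0.12 and the ribonucleotide reductase subunit RRM2 0.39 ± 0.09, neither past the threshold. For cell division the (uuaccc)4 arrays themselves lay above the reagent arrays, by a median of 0.15, and for DNA replication by 0.05.

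Of 19 measured genes of telomere maintenance 0 passed, with a median of -0.02. Since 0.233% of all genes fell and 0.0101% rose, a count of 0 in a list of this size is near the background and says nothing particular about its members, and the same holds for the other lists with 0. The shelterin proteins that bind double-stranded telomeric repeats gave -0.16 ± 0.02 for TERF1 and 0.15 ± 0.26 for TERF2. TERT, the catalytic subunit of telomerase, gave 0.02 ± 0.13. Of 24 measured G4-binding proteins and helicases 0 passed, with a median of -0.01, among them the nucleolar protein nucleolin (NCL, 0.03 ± 0.03) and the G4 RNA helicase DHX36 (-0.07 ± 0.15). Both are below 0.1 in size, and their signs turned under other settings. The lists of ribosome biogenesis, MYC targets, p53 targets, the ATF4 and unfolded protein response, hypoxia, epithelial, mesenchymal and stemness genes and VEGF signalling likewise held 0 genes past the threshold, with medians between -0.12 and 0.09. VEGFA, the ligand of FLT1, was higher in each line, at 0.92 (PC-3), 0.54 (HBC4) and 0.41 (MKN74), with an adjusted p of 0.503.

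The 46 genes that fell did so in all 3 lines, which follows in part from their selection, and their sizes differed between lines. Of the 46 genes that fell, the lowest difference was in HBC4 for 24, in PC-3 for 16 and in MKN74 for 6, and the smallest fall was most often in MKN74 (28 genes). In the antiviral list the median was again nearest to 0 in MKN74, with values of -1.69 for PC-3, -1.19 for HBC4 and -0.79 for MKN74. The NF-kB and chemokine list had its lowest median in MKN74, at -0.43, against -0.22 in PC-3 and -0.05 in HBC4. Counting single arrays, PC-3 had 125 genes at least 2-fold lower and 25 higher, HBC4 138 lower and 20 higher, and MKN74 99 lower and 29 higher. Across the 19775 genes the differences of PC-3 and HBC4 correlated at a Pearson r of 0.339, those of PC-3 and MKN74 at 0.187 and those of HBC4 and MKN74 at 0.191. Outside the interferon-linked lists these values were 0.202, 0.111 and 0.112. Genes are not independent replicates, and no test of these correlations was made. With 1 array per line and treatment, a difference between lines could not be tested.

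**Figure D3:**
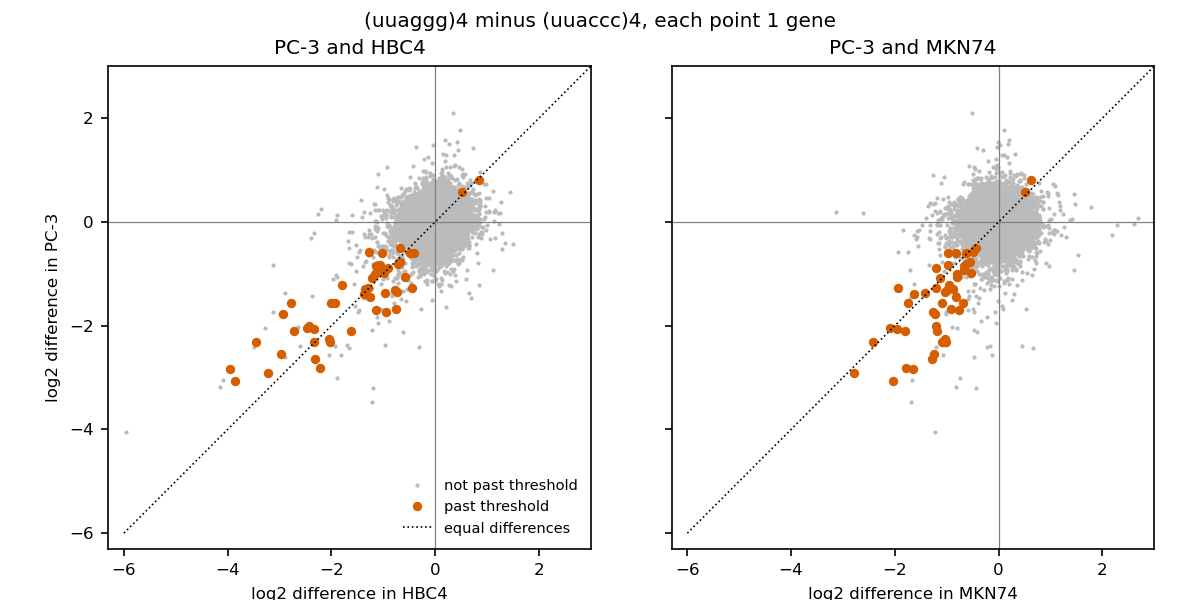
Log2 difference of (uuaggg)4 minus (uuaccc)4 in PC-3 (vertical axis) against that in HBC4 (left panel) and in MKN74 (right panel), 1 point per gene, with the genes past the threshold filled and equal differences dotted. In the right panel most genes past the threshold lie under the dotted line, since they were lower in PC-3 than in MKN74.

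Each oligonucleotide was also set against the reagent alone. The control oligonucleotide (uuaccc)4 set against the reagent gave 0 genes past the threshold with limma, 0.0% of those tested, while 567 had an unadjusted p under 0.05 and the smallest adjusted p was 0.9997. In the 46 genes that fell, (uuaccc)4 minus reagent ran from -0.28 to 0.36 with a median of -0.01, and 40 of them lay within 0.2 of 0. Over all genes the median was -0.01 too and the range was -0.75 to 1.15. The share of all genes within 0.2 was not counted, so the count of 40 says nothing particular about the 46. Outside 0.2, CCR1, IFI16, IFI44, LINC00520 and ZMYND8 were above the reagent and BATF2 was below it. Relative to the reagent, LINC00520 lay at -0.22 with (uuaggg)4 and at 0.36 with (uuaccc)4, and ZMYND8 at -0.27 with (uuaggg)4 and 0.27 with (uuaccc)4. In both genes the oligonucleotides lay on opposite sides of the reagent, and no single comparison with the reagent passed for either. Cells given (uuaggg)4 against the reagent gave 48 genes lower, 0.243% of those tested, and 3 higher; this comparison shares its (uuaggg)4 arrays with the main one. In all 46 genes the (uuaggg)4 array lay below both the (uuaccc)4 and the reagent array of each line, which held for 7.80% of all genes. This count follows in part from the selection of the 46.

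AS1411 against the reagent shares no array with (uuaggg)4 against (uuaccc)4, although the lines and the pooled spread are common to both. It gave 98 genes lower, 0.496% of those tested, and 17 higher. Of the 46 genes that fell with (uuaggg)4, 41 fell with AS1411 too, which is 89.1% of the 46 and 41.8% of the 98. For AS1411 minus reagent IFI44 gave -3.35 and IFIT3 -2.51 (adjusted p = 4.6e-06 and 1.97e-05). The 5 genes that did not pass with AS1411 were CCR1, CHD6, CYP1A1, LINC00520 and ZMYND8. Of these CYP1A1 was furthest apart, at -0.96 for (uuaggg)4 minus (uuaccc)4 and -0.27 ± 0.31 for AS1411 minus reagent. A test of the difference between the effects of the 2 oligonucleotides called 0 of 19775 genes with limma, with 758 at an unadjusted p under 0.05, so no gene is shown to respond to one oligonucleotide more than to the other.

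**Figure D4:**
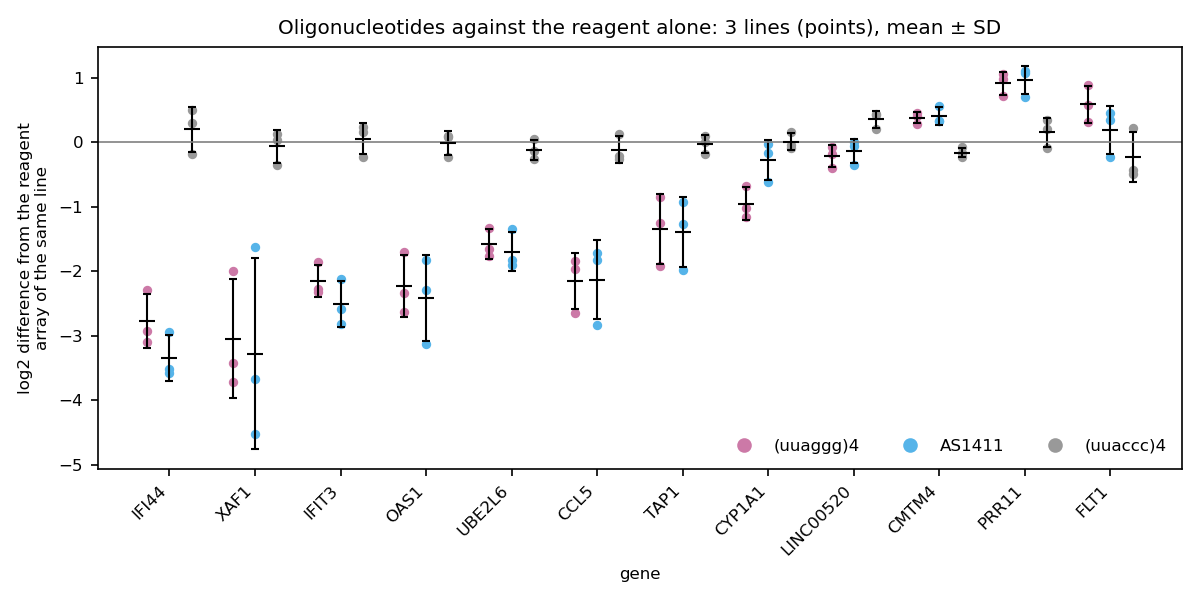
Log2 difference from the reagent array of the same line (vertical axis) for 12 genes (horizontal axis) with (uuaggg)4, AS1411 and (uuaccc)4 from left to right in each gene; points are the 3 lines, bars the mean and SD. IFI44, XAF1 and IFIT3 lie well below 0 with (uuaggg)4 and AS1411 and near 0 with (uuaccc)4, while CYP1A1 is lower with (uuaggg)4 than with AS1411 in its means.

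Probe sets gave the same direction for nearly all genes past the threshold. When each of the 41091 probe sets naming 1 gene was tested, 89 passed, 84 of them lower (0.204%), from 63 genes. Of the 31 genes past the threshold that have several probe sets, 28 had all of them on the same side of 0, the exceptions being CHD6, PRR11 and ZMYND8, and in 17 at least 2 probe sets passed. IFI44 (2 probe sets, -2.97 and -2.93), IFIT3 (2, -2.21 and -2.02) and TNFSF10 (3, from -2.12 to -2.02) showed little difference between the means of theirs. Within lines they differed more. In MKN74 the probe sets gave -2.79 and -2.205 for IFI44, -2.09 and -1.65 for IFIT3, and -1.95, -1.46 and -1.29 for TNFSF10. Others disagreed in size: PARP14 gave -1.17 and -0.06, RASGRP3 -0.98 and -0.06, TRIM5 -0.72 and -0.11, and the 5 probe sets of PPM1K ran from -1.32 to -0.04. With probe sets averaged, PARP14 (-0.62) and PPM1K (-0.66) still passed, while TRIM5 (-0.41), RASGRP3 (-0.52), CHD6 (-0.27) and ZMYND8 (-0.20) did not, each moved by more than 1.5 times. PARP9, CCR1, CLIP4, TRIM38, USP18 and IFITM3 no longer passed either, with smaller moves or none. Another 15 genes passed only through a probe set other than the one that stood for the gene. Of these, EIF4B, EPHA1 and FARP1 rose and the others fell. Genes known from the interferon response or class I presentation were RIGI, RSAD2, TLR3, ZC3HAV1, which encodes the antiviral zinc finger protein ZAP, B2M, the class I light chain, HLA-E and HLA-F. The rest were the apoptosis gene PMAIP1 (-0.78), RIMKLA (-0.59), the plexin PLXNA2 (-0.59), VAV3 (-0.56) and SLC23A3 (-0.54).

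Promoters were read because many of the genes that fell are known targets of interferon signalling. The window ran from 250 bases before to 50 after the RefSeq start site on GRCh38.p14, and 38 of the 46 genes have one in the table. The interferon-stimulated response element, searched as GAAANNGAAA on both strands, stood in 18 of the 38 (47.4%), against 3.98% of the 15384 tested genes with a promoter. In the antiviral list it stood in 31 of 40 (77.5%), and in the cell division list in 0 of 26. The STAT site TTCNNNGAA stood in 23.7% of the genes that fell, against 8.97% of all. Runs of GGG, 4 of them spaced by 1 to 7 bases, the sequence form of a G4, stood in 13.2%, against 36.3% of all. The cell cycle homology region, searched as TTTGAA, stood in 18 of 26 cell division genes (69.2%) and in 26.3% of the genes that fell, against 15.6% of all. A match describes the letters in the window and is not a measured site.

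Windows are shown for the first 5 genes that fell, in order of p, that hold the element before the start site. Genes without it, among them UBE2L6, COXFA4L3, OAS1 and BTN3A2, were passed over. The windows are 70 bases each on the gene's strand, with the response element in capitals.
IFI44: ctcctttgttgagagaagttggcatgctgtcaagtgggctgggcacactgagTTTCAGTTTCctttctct
IFIT3: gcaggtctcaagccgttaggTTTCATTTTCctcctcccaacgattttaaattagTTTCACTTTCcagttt
DDX60: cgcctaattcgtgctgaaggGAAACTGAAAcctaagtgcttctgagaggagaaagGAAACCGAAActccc
SHFL: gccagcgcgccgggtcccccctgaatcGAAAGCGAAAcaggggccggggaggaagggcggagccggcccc
PARP14: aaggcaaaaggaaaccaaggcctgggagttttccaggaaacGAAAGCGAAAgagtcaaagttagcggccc
They lie at chr1:78649719-78649788 on the plus strand for IFI44, chr10:89327821-89327890 (plus) for IFIT3, chr4:168318791-168318860 (minus) for DDX60, chr19:10086247-10086316 (plus) for SHFL and chr3:122680769-122680838 (plus) for PARP14, all on GRCh38.p14 and upstream of the start site. The element begins 18 bases before the start of IFI44, and IFIT3 and DDX60 hold 2 each. In IFI44 and IFIT3 it is read on the opposite strand, as TTTC runs. SHFL and PARP14 share the same 10 bases, GAAAGCGAAA.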

How the data were processed

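Total RNA of 12 samples was measured on Affymetrix human arrays, 1 per cell line and treatment. The authors deposited log2 expression values, and the submitters' processing notes name RMA; its version is not given in the sources used here. Every probe set had been centred on its median of the 12 arrays (largest remaining median 5e-07), a step that the labels do not describe. Base 2 was assumed because values reach 11.2. Only differences between arrays can be read from such values: no filter on dim probes could be applied, a dim probe set cannot be recognised, and the number of arrays limits the precision.

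Of 54675 probe sets, 62 array controls, 1801 naming several genes and 11721 unnamed here were left out. Names come from the platform annotation of 2016, of which 41037 of the 41091 probe sets naming 1 gene matched RefSeq by gene identifier, with 0 symbols changed. A gene with several probe sets (10523 of 19775) was represented by the one whose 3 line means had the largest SD. No column of the table was left unused (0).

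The fit used limma 3.58.1 under R 4.3.3 (lmFit, eBayes without trend) on all 12 arrays with treatment and cell line as terms and 6 residual degrees of freedom, so the spread behind each p-value is pooled over the 4 treatments and is not the SD of the 3 line differences printed beside a mean. The cell line is a block because the same replicate number stands for the same line in every treatment. The Benjamini-Hochberg adjustment ran over all genes, or all probe sets, with a threshold of 0.05. The labels name no separate cultures or scan batches, and p-values measure the spread between these samples. With 3 pairs an exact two-sided sign-flip test of a single gene cannot go below p = 0.25, so none is given. Promoters were taken from RefSeq, GRCh38.p14, and the scripts were tested on simulated data. The full sequences of the oligonucleotides and another promoter motif searched are not reported here.

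The comparison, the 21 gene lists and the 6 marker lists were chosen with earlier results of these data known. Genes were named by rule: the 16 lowest and up to 8 risers past the threshold, the 6 largest rises of at least 1.5-fold and the 4 largest falls of at least 2-fold in each line, the 4 with the largest and the 4 with the smallest SD past the threshold, 4 genes of opposite direction between lines, from each list the 4 with the smallest p, and ISG15, OAS3, TERF1, TERF2, NCL and DHX36. Other genes past the threshold and other list members were named after their values were seen. Alternatives were no line block, quantile normalization, array medians set to 0, averaged probe sets, only genes above the median SD, only the 6 arrays, a robust prior, and leaving out each line and each array.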

Additional observations from a re-analysis of the deposited data

Results flagged for a closer look

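Most genes did not share a sign in all 3 lines: of 19775, 3058 were lower and 3567 higher with (uuaggg)4 than with (uuaccc)4 in each. The 4 genes below are those in which the highest rise in a line and the deepest fall in another were both largest, ranked by the smaller of the 2; a wider spread in other genes, such as RTP4 and GBP1, came mainly from the fall. Each value rests on 1 array per arm, so the difference between lines was not tested. CLCA2, a calcium-activated chloride channel regulator, gave 1.46 in MKN74, 0.62 in HBC4 and -0.93 in PC-3, a spread of 2.39 between the highest and the lowest line. LINC01133, a long noncoding RNA, gave 1.48 in MKN74, 0.35 in PC-3 and -1.16 in HBC4, a spread of 2.65. AK5, an adenylate kinase, gave 1.04 in HBC4, 0.21 in PC-3 and -1.14 in MKN74, a spread of 2.18. ROBO4, a receptor of the Roundabout family, gave 1.05 in PC-3, -0.02 in MKN74 and -0.93 in HBC4, a spread of 1.98. When the probe sets of a gene were averaged, the spread was 2.01 for CLCA2, 1.48 for LINC01133, 1.28 for AK5 and 0.97 for ROBO4. The other probe set of AK5 was higher in all 3 lines, at 0.09 (PC-3), 0.83 (HBC4) and 0.45 (MKN74). That of LINC01133 gave 0.17 (PC-3), -0.03 (HBC4) and 0.29 (MKN74), and that of ROBO4 -0.17, -0.13 and -0.01. In these genes the large opposite differences rest on 1 probe set, whereas each probe set of CLCA2 was lower in PC-3 and higher in HBC4 and MKN74.

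Probe sets that the report's comparisons do not use also held signals. When they were tested together with all others, 4 of the 11721 unnamed probe sets passed the threshold (0.0341%), all lower with (uuaggg)4, from -1.63 to -0.82. Of the 1801 probe sets naming several genes 2 passed (0.111%), both lower, at -2.42 and -1.18.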

How the results depend on the processing

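For the 48 genes past the threshold 0 of 1056 values under the alternatives were reversed in direction, but 502 of these values no longer passed. Many of the alternatives could not reverse a direction. Leaving out the block, an AS1411 array or a reagent array keeps the difference itself unchanged. So do the robust prior, only the 6 arrays and only genes above the median SD. Leaving out a line cannot reverse a gene that has the same sign in every line. The count of 0 was therefore in large part fixed in advance. Without the cell line as a replicate block 0 genes passed (46 lower with the block, 0 without it), 0 of the probe sets against 89, and 0 genes for (uuaggg)4 against the reagent alone against 51; lines then enter the spread. Quantile normalization left 24 genes, 22 of them lower, 44 probe sets, and 28 genes against the reagent. With only the 6 arrays, which leave 2 residual degrees of freedom, 10 genes passed, all 10 lower, and 35 probe sets. Leaving out 1 line or 1 array gave 2 to 53 genes, of which 2 to 51 were lower. Setting array medians to 0 gave 52 genes, averaging probe sets 40, keeping only genes above the median SD 50 and the robust prior 48; testing all probe sets gave 63 genes, and adding the unnamed and several-gene probe sets to that fit, an alternative chosen after seeing the data, 84 probe sets. IFI44 and IFIT3 passed under each of these except the fit without the block. Among genes not past the threshold NCL turned to -0.0535 and WDR12, a ribosome biogenesis factor, to -0.0235 when probe sets were averaged, and DHX36 ran from -0.184 to 0.0305 when 1 line or array was left out, turning to 0.0167 without PC-3 and 0.0305 without its (uuaccc)4 array. Of 462 list medians 37 moved by more than the spread between lines. The cause of these changes was not tested. Signal over background cannot be read from centred values, so a small difference in a dim probe set may be missed.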

Other observations

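By size alone, 61 genes were at least 1.5-fold lower and 2 at least 1.5-fold higher with (uuaggg)4 than with (uuaccc)4 in each of the 3 lines, the 2 being FLT1 and PRR11. Both rises rest on 1 probe set of the gene, and with probe sets averaged FLT1 gave 0.21 and PRR11 0.22. Outside the interferon response some genes of tissue identity had large differences in 1 or more lines without passing the threshold. FN1, which encodes the matrix protein fibronectin, gave -1.02 in HBC4 and -1.12 in MKN74 but 0.05 in PC-3 (limma, adjusted p = 0.377). CEACAM6, an epithelial adhesion protein, gave -0.44 (PC-3), -1.53 (HBC4) and -0.84 (MKN74) (adjusted p = 0.363). ESR1, the estrogen receptor, gave -1.21 in HBC4, the line in which its values are highest, and -0.30 in PC-3 and -0.35 in MKN74 (adjusted p = 0.361). KRT5, a basal keratin, gave 1.78 in MKN74, where its values are highest, and 0.29 in PC-3 and 0.03 in HBC4 (adjusted p = 0.491). These genes were chosen after their values were seen, and each line holds 1 array per treatment.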
